A study of Mus musculus with 3 samples.

Results

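The nuclear genes of mitochondrial complex I were examined for CTCF occupancy in LSK cells (Lin-, Sca1+, cKit+), a bone marrow population that includes hematopoietic stem cells and multipotent progenitors. All protein-coding genes of GENCODE M21 on Chromosomes 1 to 19 whose symbol starts with Nduf were taken, which gave 44 of 20807 protein-coding genes. They lie on 16 of the 19 chromosomes. The rule used names and positions only, and no peak value entered it. Members and lists were, however, chosen with earlier results of these data known. CTCF was measured by ChIP-seq in 1 library of LSK cells sorted from adult C57BL6 mice, with lineage-positive cells (CD4, CD8, IL7Ra, CD11b, Ly6g, CD45R and Ter119) removed and cKit+, Sca1+ cells kept. The series has 2 further samples, an LSK input and an MEP input, which were not analyzed here. A peak list holds no transcript level, so the identity of the sorted cells could not be checked against their markers. With 1 library there is no replicate error, and all counts and shares below are descriptions without a test.

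Complex I is the entry point of electrons from NADH into the respiratory chain. Its matrix arm holds the N module, which oxidizes NADH, and the Q module, which passes the electrons to ubiquinone, and its membrane arm pumps protons. Nuclear Nduf genes encode most of its subunits, and the Ndufaf genes encode assembly factors that are not part of the finished complex. CTCF is a zinc finger protein that binds a long DNA motif and holds the anchors of chromatin loops together with cohesin. It is known for sites at boundaries between domains and also at promoters.

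In LSK cells, CTCF peaks were common near the starts of complex I genes. Of the 44 members, 24 (54.5%) had one within 10 kb, whereas 30.4% of all protein-coding genes had a peak within that distance of the TSS. A peak within 1 kb was found for 10 members (22.7%), against 8.92% of all protein-coding genes, and a peak within 50 kb for 38 (86.4%), against 69.7%. The distance was taken from the TSS, the 5′ end of the gene record, to the nearest edge of a peak, and was 0 where the peak covered the TSS. The median distance was 6424 bp for the members and 22788 bp for all protein-coding genes. Each member had a nearest peak of its own, so that the 24 and the 38 rest on as many distinct peaks.

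Gene density was taken into account next, since genes with more neighbors had a peak more often. The members had a median of 3 other protein-coding TSSs within 50 kb, and all protein-coding genes a median of 2. Weighted to the members' make-up in 5 groups of this density, the protein-coding genes outside the list gave 9.32% within 1 kb, 33.4% within 10 kb and 73.4% within 50 kb. At these shares 4.1, 14.7 and 32.3 of the 44 genes would have a peak. In the densest group, with 4 to 19 neighbors, 9 of 12 members had a peak within 10 kb, and 41% of all protein-coding genes of that group did. In the group without a neighbor it was 2 of 4 members and 21% of genes. Between these, it was 3 of 7 members and 27% of genes with 1 neighbor. With 2 neighbors it was 3 of 9 and 30.9%, near the background, and with 3 neighbors 7 of 12 and 36%. A CpG-rich start is the other common property of these genes. An observed over expected CpG of at least 0.6 within 500 bp to either side of the TSS was found for 37 members (84.1%) and for 47.2% of all protein-coding genes. Among CpG-rich genes outside the list, weighted to the density of the 37 CpG-rich members, the shares were 12.9%, 38.1% and 82.1%. At 50 kb the 86.4% of all 44 members lay close to this background. The shares of the 37 by themselves were not computed.

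**Figure D1:**
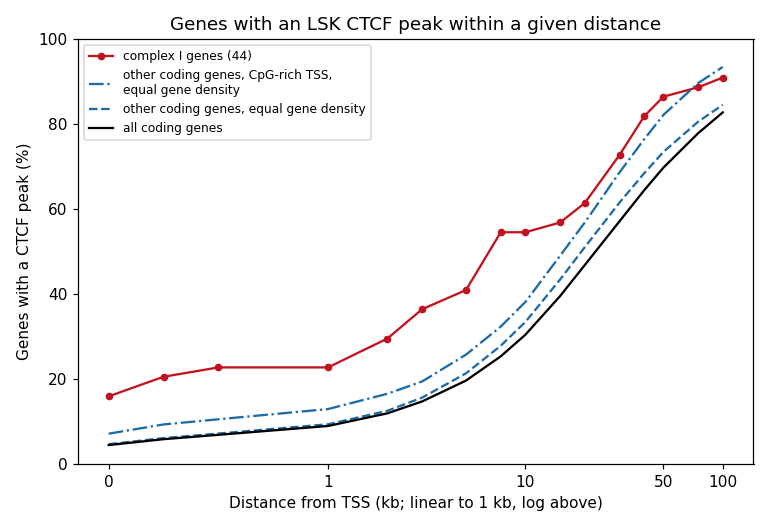
Share of genes with an LSK CTCF peak (y axis, percent) within a given distance of the TSS (x axis, kb, linear to 1 kb and log above). The red points are the 44 complex I genes and the black line all protein-coding genes. The blue lines are other coding genes weighted to equal gene density. The dashed one holds all of these whatever their CpG, and the dash-dotted one only those with a CpG-rich TSS. The members start at 15.9% at 0 kb, reach 54.5% at 7.5 kb and then stay flat to 10 kb, and are below the CpG-rich line at 100 kb (90.9% against 93.4%).

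The peaks at the gene starts are best seen with their sequence. A 12-base CTCF core motif was searched on both strands within each peak. The following stretches of 52 bases (GRCm38.p6, 5′ to 3′ on the strand named) are those within peaks at a member's start that do not touch an annotated exon, with the bases that match the motif in capitals. The first 2 match it without a mismatch, and in the others the mismatched base of the core is in lower case.
Ndufaf4, chr4:24898007-24898058, plus strand: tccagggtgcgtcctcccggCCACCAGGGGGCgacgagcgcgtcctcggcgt
Ndufv2, chr17:66101868-66101919, minus strand: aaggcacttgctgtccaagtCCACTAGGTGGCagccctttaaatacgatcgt
Ndufc1, chr3:51408989-51409040, plus strand: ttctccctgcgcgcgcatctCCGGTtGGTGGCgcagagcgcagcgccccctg
Ndufc1, chr3:51409013-51409064, minus strand: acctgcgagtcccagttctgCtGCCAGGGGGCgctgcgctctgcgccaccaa
Ndufa6, chr15:82354410-82354461, plus strand: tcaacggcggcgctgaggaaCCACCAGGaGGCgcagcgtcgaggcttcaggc
Ndufa3, chr7:3617021-3617072, plus strand: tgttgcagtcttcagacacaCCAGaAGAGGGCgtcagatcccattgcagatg

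The Ndufaf4 match lay 51 bp upstream of the TSS and 4 bp from the midpoint of the peak. In Ndufv2 the match was 334 bp upstream and at the midpoint itself. The Ndufc1 matches, 1 on each strand, were 26 and 50 bp upstream. A match of letters is a description and not a measured site. The peak with the highest fold enrichment at a member's start, that of Ndufb10, held no match with fewer than 2 mismatches. The 150 bases upstream of its TSS are shown for this reason, with the matching bases of the sites with 2 mismatches in capitals. Of these, 1 is on the opposite strand and reads as its reverse complement.
Ndufb10, chr17:24724479-24724628, minus strand: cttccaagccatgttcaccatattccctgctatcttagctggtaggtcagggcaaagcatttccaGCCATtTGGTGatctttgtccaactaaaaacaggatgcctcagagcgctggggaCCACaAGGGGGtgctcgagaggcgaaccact

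Of the 10 members with a peak within 1 kb, 7 had it over the TSS. Among all protein-coding genes with a peak within 1 kb, 49.6% had it over the TSS. The strength of a peak is given by the authors' fold enrichment, the ratio of ChIP signal over background, and by the −log10 p-value of the peak caller. The peak over Ndufb10 (chr17:24724190-24724895) had a fold enrichment of 21.21 (−log10 p-value 38.251). Ndufb10 encodes a membrane arm subunit on the side of the intermembrane space. The peak over Ndufc1 (chr3:51408650-51409496), a small subunit of the membrane arm, had a fold enrichment of 19.25 (−log10 p-value 39.959). That over Ndufaf4 (chr4:24897634-24898423), an assembly factor of the Q module, had 15.99 and 19.687. These 3 stood above the median fold of 10.12 over all peaks of Chromosomes 1 to 19.

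The other four peaks over a TSS were nearer to that median. The peak over Ndufb7 (chr8:83566234-83567048), another subunit of the intermembrane space side, had a fold enrichment of 12.73 (−log10 p-value 16.655). Ndufa6 had a peak (chr15:82354055-82354820) with a fold of 11.42 (−log10 p-value 12.201). Ndufa6 encodes the subunit of the Q module to which the acyl carrier protein attaches. Ndufv2, a core subunit with an iron-sulfur cluster, had the first base of its gene record at the edge of the peak (chr17:66101559-66102227), with a fold of 9.14 (−log10 p-value 11.547). Ndufab1, the mitochondrial acyl carrier protein itself, had the lowest fold of the 7 (chr7:122101752-122102302), with a fold of 7.18 (−log10 p-value 6.652).

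Beside these, 3 members had a peak close to the TSS but not over it. The Ndufa3 peak (chr7:3616661-3617359) ended 14 bp upstream, with a fold enrichment of 8.48 (−log10 p-value 9.895). Ndufa3 is a membrane arm subunit, and the start of Oscar on the other strand lay 504 bp from the peak. The Ndufaf3 peak (chr9:108566803-108567359) began 75 bp downstream, with a fold of 6.20 (−log10 p-value 7.028), and its midpoint was in an exon of Ndufaf3. Ndufaf3 works with Ndufaf4 in assembly. On the other strand, the start of the long noncoding RNA gene 4833445I07Rik lay 174 bp from the peak. The start of the microRNA gene Mir191, also on that strand, lay 960 bp from it. The Ndufa12 peak (chr10:94199097-94199620) lay 377 bp downstream in an intron of the gene, with a fold of 6.53 (−log10 p-value 5.248). Among the 24 nearest peaks within 10 kb only that of Ndufaf2 had a lower −log10 p-value, 5.046. Ndufa12 is an N module subunit.

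**Figure D2:**
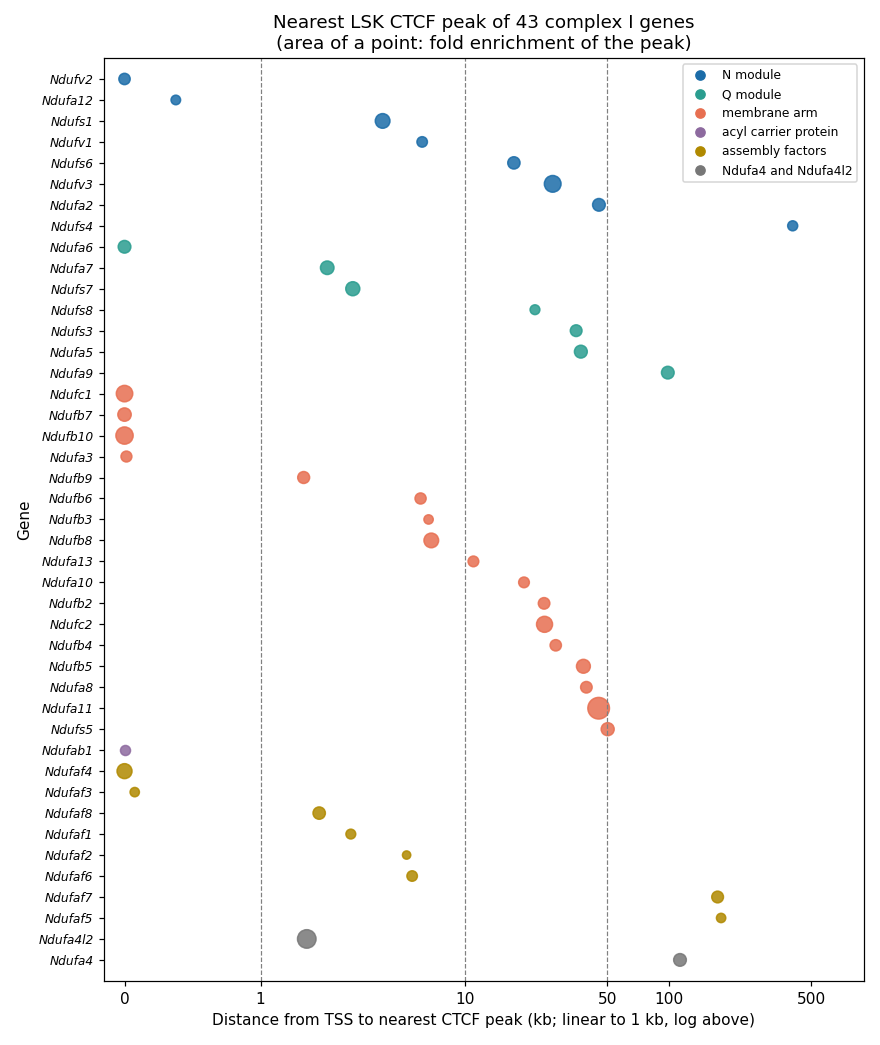
Distance from the TSS to the nearest CTCF peak (x axis, kb, linear to 1 kb and log above) for 43 of the 44 complex I genes (y axis), colored by module, with the area of each point for the fold enrichment of that peak. The dashed lines mark 1, 10 and 50 kb. All 9 Ndufb genes lie within 50 kb, while Ndufs4 stands alone at 404833 bp.

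A second group of 14 members had the nearest peak between 1 and 10 kb away. Of all 22 peaks 1 to 10 kb from a member's TSS, 12 (54.5%) held the core motif without a mismatch. Among such peaks at all protein-coding genes 33.8% did. With 1 mismatch allowed the shares were 81.8% and 84.2%, so only the exact match was more frequent. The exact matches of the 5 nearest peaks with the highest fold enrichment, where they had one, are shown. Those of Ndufaf2 and Ndufb3, which share a core with Ndufs1, are added. Capitals mark the core motif without a mismatch (GRCm38.p6, 5′ to 3′ on the strand named).
Ndufa4l2, chr10:127512998-127513049, plus strand: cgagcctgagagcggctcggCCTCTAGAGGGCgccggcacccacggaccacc
Ndufs7, chr10:80245806-80245857, minus strand: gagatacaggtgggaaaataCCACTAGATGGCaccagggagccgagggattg
Ndufa7, chr17:33827042-33827093, minus strand: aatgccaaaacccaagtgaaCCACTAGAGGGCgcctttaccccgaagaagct
Ndufs1, chr1:63181143-63181194, plus strand: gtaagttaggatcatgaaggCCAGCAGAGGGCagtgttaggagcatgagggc
Ndufs1, chr1:63181253-63181304, plus strand: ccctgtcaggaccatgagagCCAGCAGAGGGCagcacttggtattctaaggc
Ndufaf2, chr13:108153158-108153209, minus strand: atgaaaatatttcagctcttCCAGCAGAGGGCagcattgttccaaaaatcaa
Ndufb3, chr1:58579351-58579402, minus strand: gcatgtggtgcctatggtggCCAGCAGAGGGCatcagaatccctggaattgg

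The core CCAGCAGAGGGC occurred at 4 sites of 3 genes (Ndufs1 with 2, Ndufaf2 and Ndufb3). Both Ndufs1 cores and the Ndufb3 core are soft-masked as repeats in the genome, while the Ndufaf2 core is not. The Ndufs1 cores lie on the same strand.

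The highest fold enrichment among all 24 nearest peaks within 10 kb was at Ndufa4l2, the paralog of Ndufa4 that is known to be induced by low oxygen. Its peak (chr10:127512508-127513283) ended 1684 bp upstream of the TSS, with a fold of 24.47 (−log10 p-value 65.155). Its TSS is poor in CpG, with an observed over expected ratio of 0.186, unlike most members. The Ndufs1 peak (chr1:63180796-63181673) lay 3963 bp upstream, with a fold of 15.34 (−log10 p-value 37.233). Ndufs1 is the largest core subunit of the N module. The Ndufs7 peak (chr10:80245441-80246291) lay 2830 bp upstream with a fold of 14.03 (−log10 p-value 24.286), and Ndufs7 carries the last iron-sulfur cluster before ubiquinone. The Ndufa7 peak (chr17:33826693-33827406) was 2121 bp downstream in an intron of the gene, with a fold of 13.05 (−log10 p-value 19.934). Ndufa7 is an accessory subunit of the Q module, and its TSS lies 10 bp from that of Rps28.

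Ndufb8 had a peak with the same fold as Ndufs1 that lay at the start of another gene. This peak (chr19:44562302-44563106) lay 6862 bp upstream of the membrane arm gene, with a fold enrichment of 15.34 (−log10 p-value 25.7), and it covered the TSS of Hif1an, which encodes an inhibitor of the hypoxia-inducible factors. Over all 24 members, the peak was nearest to the member's own TSS in 20. Those nearer to another TSS included Ndufb8, Ndufb9 (Tatdn1, 18 bp from the Ndufb9 TSS) and Ndufb3 (Fam126b, 61 bp). Among the 20 are Ndufs1 and Ndufa7, whose starts lie only 8 and 10 bp from that of a neighboring gene. The same share over all protein-coding genes was not computed. The Ndufaf1 peak, 2768 bp upstream with a fold of 6.85, had its midpoint in an exon of H3f3c, a processed pseudogene. The authors allowed multiply mapping reads, and their part in this peak was not tested.

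The nearest peaks of Ndufb9 (1626 bp upstream, fold 10.12) and Ndufaf8 (1937 bp downstream, fold 10.86) were close to the median strength. Ndufb9 is a membrane arm subunit that binds the acyl carrier protein, and Ndufaf8 is the partner of the assembly factor Ndufaf5. Weaker peaks lay upstream of Ndufaf6 (5529 bp, fold 7.83), Ndufb6 (6081 bp, fold 8.81), Ndufv1 (6191 bp, fold 7.83) and Ndufb3 (6656 bp, fold 6.20). Ndufv1 binds NADH and the flavin cofactor. Ndufaf2, an assembly factor related to Ndufa12, had the lowest fold of the 24, 4.89, in a peak 5194 bp inside an intron of its own gene.

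Peak strength was compared separately from peak number. The median fold enrichment of the 24 nearest peaks was 10.49, with quartiles of 7.668 and 14.36, and that of the nearest peaks of all protein-coding genes with one within 10 kb was 10.44, with quartiles of 7.83 and 14.03. Within 1 kb the medians were 10.28 and 10.44. Of the 24, 12 were above the median over all peaks. The folds of the members' peaks thus lay in the same range as those of other genes. Within 10 kb, 17 members had exactly 1 peak and 7 had 2 or more, in all 32 distinct peaks. Within 50 kb the mean number of peaks was 2.09 for members and 1.71 for all protein-coding genes, with a maximum of 6 at Ndufa4l2.

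**Figure D3:**
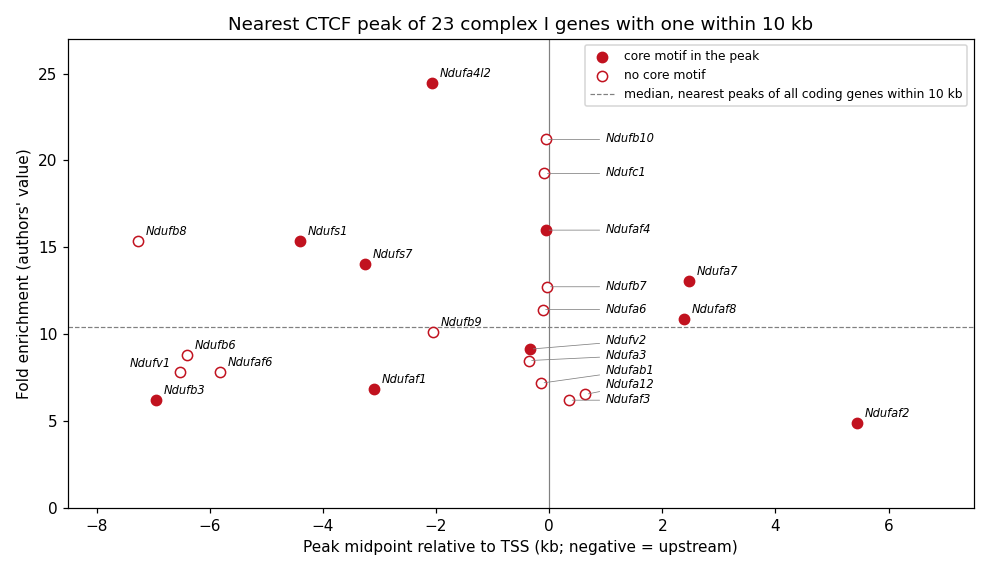
Fold enrichment (y axis, the authors' value) of the nearest CTCF peak against the position of its midpoint relative to the TSS (x axis, kb, negative upstream) for 23 of the 24 complex I genes with a peak within 10 kb. Filled points hold the core motif without a mismatch, and the dashed line is the median of 10.44 over the nearest peaks of all coding genes within 10 kb. The 18 upstream midpoints are all plotted, and Ndufa4l2 has the highest fold.

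Upstream midpoints were in the majority among the members, as they were among all protein-coding genes. Among the 10 members with a peak within 1 kb, the midpoint was upstream in 8, and among all protein-coding genes with such a peak in 66.3%. Among the 14 with a peak 1 to 10 kb away it was upstream in 10, against 56.4% of protein-coding genes. By their midpoints 16 of the 24 peaks were intergenic, 5 were in introns and 3 in exons. The intergenic ones include the 7 peaks over a member's TSS, whose midpoints lay just upstream of it. Of the 24 midpoints, 5 were within the member itself, as in Ndufaf3, Ndufa12, Ndufa7 and Ndufaf2. These placements were not compared with those at other genes.

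The sequence of peaks at the starts was set beside that of peaks farther away. The core motif was present in 2 of the 10 peaks within 1 kb of a member's TSS, Ndufaf4 and Ndufv2, whereas 29.6% of the peaks within 1 kb of any protein-coding TSS held it. It was present in 12 of the 22 peaks 1 to 10 kb away (54.5%), against 33.8% of all peaks whose nearest protein-coding TSS was 1 to 10 kb away. Together 14 of 32 peaks (43.8%) held it, and 35.7% of all peaks of Chromosomes 1 to 19 did. With 1 mismatch allowed the counts were 7 of 10 at the starts, where 78.3% of the peaks at all protein-coding genes passed, and 18 of 22 farther away, where 84.2% did. These counts were near the background. The peaks at the starts had a median G+C content of 57.4% and a median observed over expected CpG of 0.69, and those 1 to 10 kb away 47% and 0.27. The peaks at all protein-coding genes had the same order, with 55.2% and 0.592 at the starts and 47.8% and 0.239 farther away. RefSeq promoters, which run from 250 bases before to 50 after the start, were found for 38 of the members. Of their 40 records, 2 held the motif (Ndufaf4 and Ndufv1), and 1.43% of 31396 promoters did. The Ndufv1 match is outside its nearest peak, which lay 6191 bp from the TSS.

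By role, the modules of the complex had similar shares within 10 kb. For all of these groups the shares of all protein-coding genes are 8.92% within 1 kb, 30.4% within 10 kb and 69.7% within 50 kb. Of 8 N module genes, 2 had a peak within 1 kb (Ndufv2 and Ndufa12), 4 within 10 kb and 7 within 50 kb. The 8 Q module genes had 1 (Ndufa6), 4 and 7, and the 17 genes of the membrane arm had 4 (Ndufc1, Ndufb7, Ndufb10 and Ndufa3), 8 and 16. Of the 7 core subunits, those conserved from bacteria, 5 had a peak within 10 kb and all 7 within 50 kb. The 27 other subunits had 12 within 10 kb and 24 within 50 kb. Assembly factors lay either near a peak or far from one. Of 8, 6 had a peak within 10 kb, with a median fold enrichment of 7.34, and the other two (Ndufaf5 and Ndufaf7) had none within 50 kb. The groups are small, and a difference of 1 gene moves a share of 8 genes by 12.5%.

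Beyond 10 kb, 14 members had their nearest peak within 50 kb. In the N module these were Ndufs6 at 17427 bp, Ndufv3 at 27000 bp (fold 19.90) and Ndufa2 at 45480 bp. In the Q module, the core subunits Ndufs8 and Ndufs3 had theirs at 22106 and 35180 bp, and Ndufa5 at 37092 bp. In the membrane arm, Ndufa13 was nearest, at 11038 bp, followed by Ndufa10 at 19531 bp, Ndufb2 at 24496 bp, Ndufc2 at 24625 bp (fold 18.27), Ndufb4 at 27943 bp, Ndufb5 at 38181 bp and Ndufa8 at 39478 bp. The nearest peak of Ndufa11, at 45345 bp, had the highest fold enrichment among the nearest peaks of the 44 members, 33.28. That peak is nearer to the TSS of Dus3l than to Ndufa11.

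The remaining 6 members had none within 50 kb. Ndufs5 missed the limit narrowly, at 50204 bp. Ndufa9, a Q module subunit that binds a nucleotide cofactor, was at 98945 bp. Ndufa4, now known as a subunit of cytochrome c oxidase, was at 113530 bp, while its paralog Ndufa4l2 had the highest fold among the nearest peaks within 10 kb. Ndufaf7, at 173546 bp, and Ndufaf5, at 180500 bp, encode enzymes that modify arginines of core subunits. Ndufs4, whose loss is a well known cause of complex I deficiency, was the farthest, at 404833 bp.

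Many complex I genes share their start region with another gene. Another protein-coding TSS lay within 1 kb for 19 of the 44 members (43.2%), as in Ndufa7 and Rps28 or Ndufs1 and Eef1b2, which start 8 bp apart. For all protein-coding genes the share was 12.9%, and for CpG-rich ones 21.7%. None of these 19 members had a peak within 1 kb, the nearest being that of Ndufb9 at 1626 bp, while 10 of the 25 members without such a neighbor had one (40%). Among all protein-coding genes the shares were 9.7% with a neighboring start and 8.81% without, and among CpG-rich genes 9.86% and 12.8%. At the share of all protein-coding genes, 1.84 of the 19 would have had a peak. This division was chosen after the values were seen, so it is a description of these genes only. It also rests on coding starts and a limit of 1 kb. Of the 10 members with a peak, Ndufaf3 starts 99 bp from the noncoding gene 4833445I07Rik. Ndufa3 starts 1216 bp from Oscar, just past the limit. With the nearest transcript start in place of the gene start the 0 became 1. Within 10 kb the counts were 7 of 19 (36.8%) and 17 of 25 (68%). All protein-coding genes had 32.4% with a neighboring start and 30.1% without, and CpG-rich ones 31.9% and 35.7%. The 36.8% was thus near the background.

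**Figure D4:**
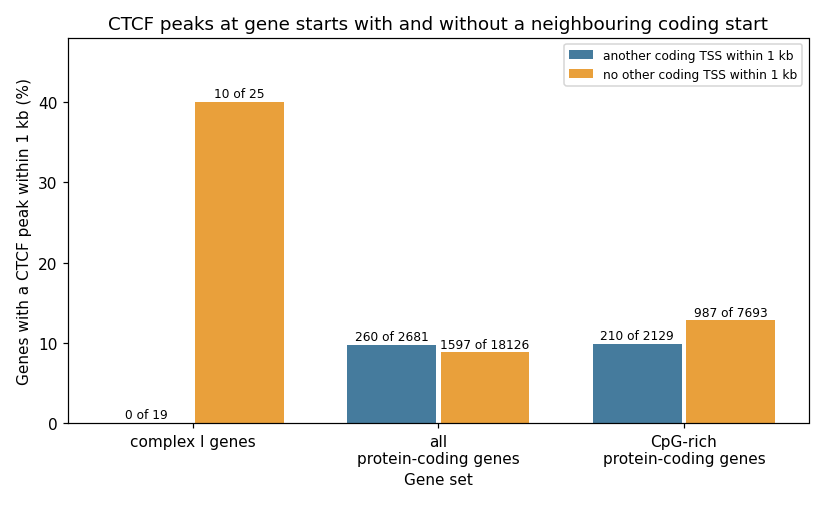
Share of genes with a CTCF peak within 1 kb of the TSS (y axis, percent) for genes with (blue) and without (orange) another protein-coding TSS within 1 kb, for the complex I genes, all protein-coding genes and the CpG-rich ones (x axis). The counts stand over the bars, with 0 of 19 and 10 of 25 for complex I genes.

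The other complexes of oxidative phosphorylation were counted for comparison, from a list of well known subunits of complexes II to V. Of 38 gene records on Chromosomes 1 to 19, 5 (13.2%) had a peak within 1 kb, 17 (44.7%) within 10 kb and 29 (76.3%) within 50 kb. Atp5o of complex V has 2 records, each with a peak within 10 kb, and enters these counts with both. Complex I was above these shares at each distance. Uqcrc1 and Uqcrc2 of complex III had peaks over their TSSs, with folds of 7.83 and 9.14, and Sdhb of complex II had one 2764 bp away with a fold of 24.47. Of 8 complex I assembly genes with other names, none had a peak within 1 kb, 1 (Tmem186) had one within 10 kb and 5 had one within 50 kb, where the Ndufaf genes had 6 of 8. The limit of 10 kb matters here, since Ecsit and Foxred1 missed it narrowly, at 10555 and 10641 bp. Mitochondrial ribosomal protein genes, with 88.5% CpG-rich starts, had peaks within 10 kb for 35 of 78 (44.9%). Cytoplasmic ribosomal protein genes were higher than complex I at each distance, with 19 of 75 (25.3%) within 1 kb, 52 (69.3%) within 10 kb and 70 (93.3%) within 50 kb.

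**Figure D5:**
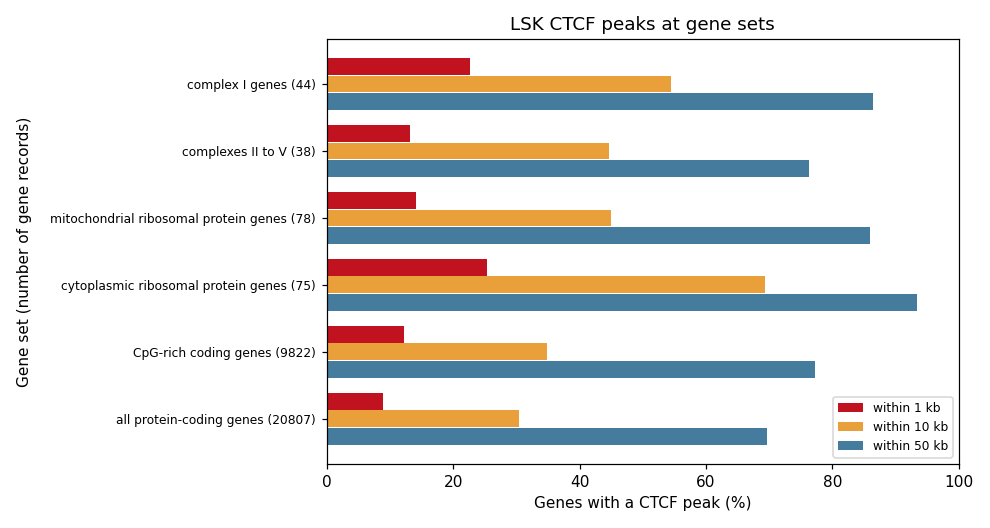
Share of genes with an LSK CTCF peak (x axis, percent) within 1, 10 and 50 kb of the TSS for 6 gene sets (y axis, with the number of gene records). Complex I genes are at 22.7%, 54.5% and 86.4%, between the genes of complexes II to V and the cytoplasmic ribosomal protein genes. The complex I set includes assembly factors, Ndufa4 and Ndufa4l2, whereas that of complexes II to V holds subunits only.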

How the data were processed

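CTCF ChIP-seq peaks of 1 LSK library were used as deposited by the authors. They mapped reads to mm10 with Bowtie, allowed multiply mapping reads, removed reads on the mitochondrial and unplaced chromosomes and called peaks with MACS. The submitters' notes name Bowtie 1.0.0 and the study's methods another version, and the difference was not reconciled. The sources used here give neither the MACS settings nor the use of an input. The list has 18945 peaks and no header, so units were read from its layout and values. Fold enrichment is a ratio made by the authors, and the deposited p-value is on a −log10 scale. The deposited false discovery rate was not used, since its scale is not stated. Reads behind a peak are not in the list, so the depth is unknown and no interval is given for a fold.

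Positions were compared with GENCODE M21 on GRCm38.p6, whose chromosome lengths contain all peaks. Gene density was the number of other protein-coding TSSs within 50 kb, in 5 groups. The shares of genes outside the list were weighted to the members' groups. The core motif was searched on both strands. Roles were taken from general knowledge. All members could be named with their distance, except 1 that enters the counts but is not reported here by itself or drawn in the plots of single genes, and peak position, fold and p-value were given in full for those within 1 kb and for the 5 highest folds between 1 and 10 kb. Members and lists were chosen with earlier results of these data known. Alternatives were the stronger 9348 peaks alone, peak midpoints, transcript starts, subunits alone, other density settings and other motif settings. Python 3.11.15, numpy 2.4.6, pandas 2.3.3, pysam 0.24.0 and matplotlib 3.10.9 were used, and the distance, weighting and motif steps were tested on simulated data.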

Additional observations from a re-analysis of the deposited data

How the results depend on the processing

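The member counts depended little on how distance was measured, but the shares of all protein-coding genes beside them rose with transcript starts. The shares at equal density were not computed with transcript starts. Of 23 alternatives, 8 moved the value. A count was taken as moved when it changed by over 1.5 times, and the share at equal density when it left its 95% binomial interval (Wilson) of 32.8% to 34.1%. That interval treats genes as independent, although neighbors can share a peak, and holds no variation between libraries. It serves only as a limit for calling a share moved. Peak midpoints gave 10, 24 and 38 members within 1, 10 and 50 kb, and transcript starts gave 11, 25 and 39, although the shares of all protein-coding genes then rose to 13.6%, 39.5% and 74.1%. The 34 subunits alone gave 8, 17 and 31. Among the 9348 peaks with the highest −log10 p-values (from 12.727), the counts were 4 within 1 kb (4.69% of all protein-coding genes), 14 within 10 kb (17.9%) and 27 within 50 kb (51.1%), since the list is shorter. The 4 within 1 kb were Ndufaf4, Ndufc1, Ndufb7 and Ndufb10. The share at equal density within 10 kb was 33.4% and became 31.9% with neighbors counted within 100 kb, 36.8% without olfactory and vomeronasal receptor genes, 20.5% with the stronger peaks alone and 38.1% in CpG-rich genes, an alternative added after the data were seen. With 1 mismatch allowed, 25 peaks held the motif in place of 14. Another count added after the data were seen, of members with a neighboring start and a peak within 1 kb, rose from 0 to 1 with transcript starts. No paired analysis was possible because only 1 library was analyzed, and for the same reason no replicate could be left out. Weak peaks such as that of Ndufa12 are limited by a depth that is not known from the list.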

Other observations

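Nduf records outside the counted genes were also measured. The X-linked subunit genes Ndufa1 and Ndufb11 had their nearest peaks at 23503 bp (fold enrichment 7.83) and 153262 bp (9.14). Ndufb1-ps, listed as a long noncoding RNA, had one at 7890 bp (9.14). Of 4 processed pseudogenes, Ndufs6b had a peak over its start (chr7:81161526-81162918) with a fold enrichment of 11.09 (−log10 p-value 28.783). The others were at 17614 bp (Ndufb4c), 30757 bp (Ndufa11b) and 76134 bp (Ndufab1-ps).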
